A study of Rattus norvegicus with 6 samples.

Results

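Cytosolic ribosomal protein genes encode the proteins of the 40S and 60S ribosomal subunits. Here they were taken as the entries of the deposited count table whose gene symbol is Rps or Rpl followed by a number, with at most 1 letter and further digits, together with Rpsa, Rplp0, Rplp1 and Rplp2. The S6 kinases and the processed copies marked -ps were left out by this rule. It found 97 rows with 78 symbols among 18930 rows, because 14 symbols stand on more than 1 row. RNA was sequenced from NRK-52E, an established line of rat kidney epithelial cells labelled as wild type, in 3 vehicle-treated (Control) samples and in 3 that received streptozotocin (STZ) at 10 mM for 24 h. STZ is a glucose-linked nitrosourea that alkylates DNA. For the study's cell counts it was dissolved in dimethyl sulfoxide, and the methods name no other solvent for the RNA samples. The comparison asks how the RNA of these genes differed between STZ-treated and vehicle-treated cells.

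Ribosomal protein mRNAs are among the most abundant of a growing cell. Most of their products are needed in equal amounts. Most of these mRNAs begin with a cytosine and a run of pyrimidines, the 5′ terminal oligopyrimidine (TOP) tract. Through this tract, mTORC1 and LARP1 control their translation. When ribosome assembly is disturbed, the pre-ribosomal particle of Rpl5, Rpl11 and 5S rRNA binds Mdm2 and restrains it from degrading p53. Rps27l, a paralogue of Rps27 with a near-identical protein, is a known transcriptional target of p53.

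Total counts were 10430924 to 12737131 in Control and 11658253 to 15191349 in STZ. Neither the labels nor the methods say whether the samples were separate cultures, so that the p-values measure the spread between these samples. Counts were scaled to CPM, the counts for each 1000000 reads counted, with edgeR's TMM factors, which lay between 0.988 and 1.02. Of the markers of the labelled cell type, Krt8 had 11691 or more counts in every sample, whereas Krt18 had at most 3, the renal genes Pax8 and Lhx1 at most 4, and the proximal tubule genes Lrp2, Slc34a1, Slc5a2, Slc2a2 and Cubn at most 10. Among the proximal tubule markers, Aqp1 had 66 to 167 counts. Krt8 was higher in STZ (log2 fold change 0.48), whereas Cdh1, an epithelial marker with 16 to 35 counts (-0.69), Aqp1 (-1.25) and the fibroblast markers Col1a1 (-0.27) and Pdgfrb (-0.33) were lower, and whether they bear on the results was not tested. In bulk RNA, a difference in the number of cells and a difference in RNA per cell cannot be told apart, and all levels given here are relative to the other genes of the same library.

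Of the 97 rows, 77 passed the filter on low counts. The other 20 had at most 19 counts in any sample, and 13 of them share their symbol with a row that passed. In terms of the 77 standard cytosolic ribosomal proteins whose symbols match the rule, 66 were tested. Rpl35a did not pass the filter, with at most 8 counts in any sample. Rps7, Rps26, Rpl7, Rpl10, Rpl13a, Rpl27a, Rpl36, Rpl37, Rpl37a and Rpl41 were not analysed here. The authors counted uniquely mapped reads, which can be few for genes with near-identical processed copies. Rpl39 had 47 to 79 counts on its most-read row and Rpl22 had 102 to 166.

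As a group, the ribosomal protein genes moved little after STZ. The test was the quasi-likelihood F-test of edgeR, adjusted by Benjamini-Hochberg over all 11870 genes tested, and log2FC denotes the log2 fold change of STZ against Control and SE its standard error. No row met both cutoffs of the study, which ask for a difference beyond 1 in log2FC besides an adjusted p below 0.05, whereas 3.37% of all genes did. With the adjusted p alone, 12 of the 77 rows were higher in STZ (15.6%, against 25.9% of all genes tested), 19 were lower (24.7%, against 25.1% of all genes) and 46 did not pass. The share of lower rows was thus near that of all genes, and the share of higher rows was smaller. The median log2FC of the 77 rows was -0.03, beside -0.01 for all genes tested. Of the 77 rows, 72 lay within 0.25 of zero on the log2 scale (93.5%), compared with 61.2% of all genes tested. The median level was 461 CPM for these rows and 37.1 CPM for all genes tested. This spread was not compared at matched level, and whether level bears on it was not tested. A mean of 100 CPM or more was found for 68 of the rows. Among these 68, 17.6% were higher and 26.5% lower, whereas among all 2518 genes at that level 36.9% were higher and 30.1% lower. The number of lower calls varied when single libraries were left out. In those fits the share of lower genes among all genes also fell, to between 22% and 23.2%. Without Control replicate 2, 11 rows were lower (14.1%, against 22.5% of all genes) and 15 higher (19.2%, against 23.3%), and the median log2FC was 0.0059. Without STZ replicate 3, 13 rows were lower (16.7%, against 22% of all genes), and without STZ replicate 1, 15 were (19.5%, against 22.2%). Scaling by library size only gave 9 higher rows (11.7%, against 22.4% of all genes) and 29 lower rows (37.7%, against 29.4%).

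**Figure D1:**
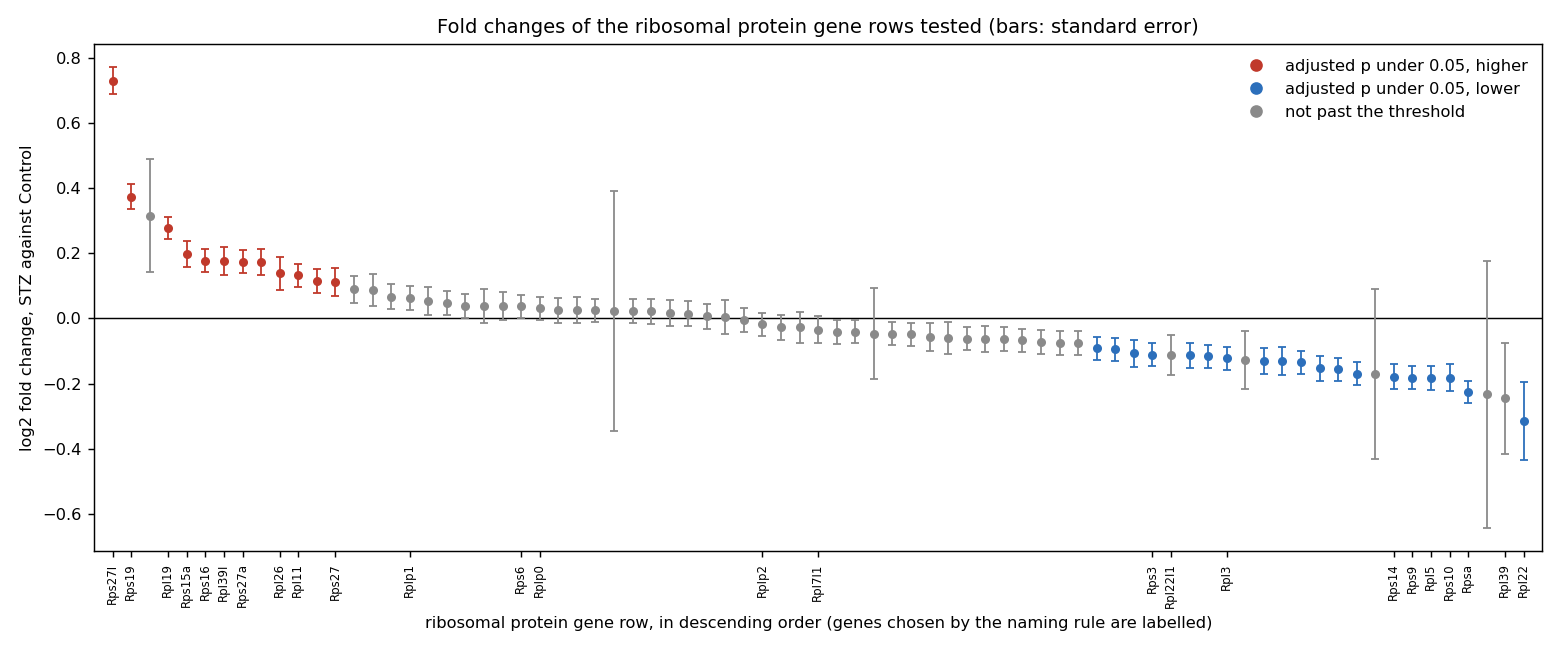
The log2FC (STZ against Control) of the 77 ribosomal protein rows tested is plotted on the y axis, with 1 row per position on the x axis in descending order and labels only for the genes chosen by the naming rule, points coloured by the test result and bars for the SE. Rps27l stands at 0.73, above Rps19 at 0.37, and most other rows lie within 0.25 of zero.

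**Figure D2:**
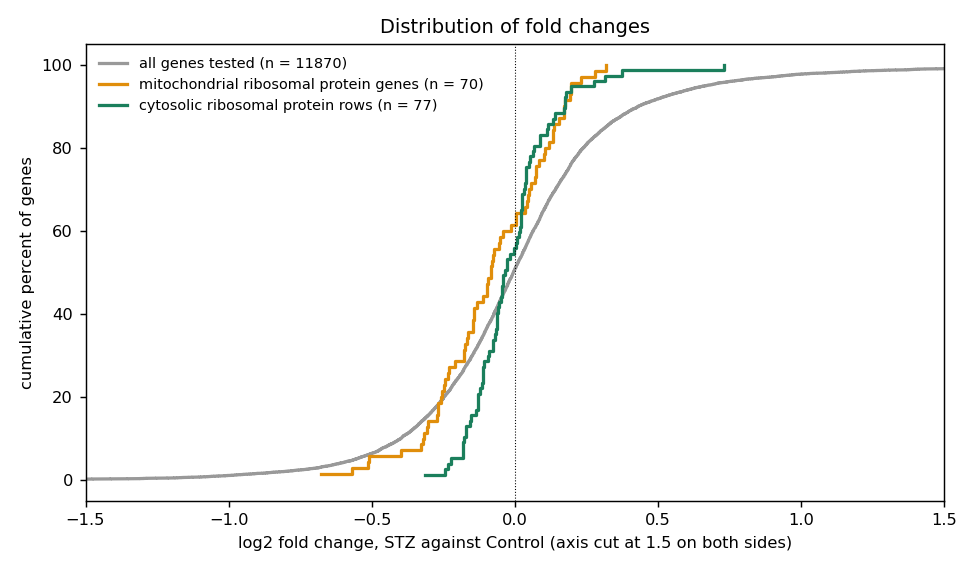
The x axis gives the log2FC (STZ against Control) and the y axis the cumulative percent of genes, for 77 cytosolic ribosomal protein rows, 70 mitochondrial ribosomal protein genes and all 11870 genes tested. The curve of the cytosolic rows is the steepest, with 93.5% of rows within 0.25 of zero against 75.7% of the mitochondrial genes and 61.2% of all genes. The sets were not matched for level.

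The summed counts of all 97 rows took 3.76%, 3.89% and 3.65% of each library in Control replicates 1, 2 and 3, and 3.69%, 3.62% and 3.63% in the STZ replicates. The groups overlapped, and Control replicate 2 held the largest share. The 60S rows had 1.24, 1.23 and 1.23 times the counts of the 40S rows in the Control samples and 1.26, 1.25 and 1.25 times in the STZ samples. The summed RNA counts of the 2 sets of rows thus kept nearly the same ratio, with each STZ value above each Control value by a small margin. The subunits themselves were not measured. Of the 33 rows of 40S genes tested, 6 were higher and 10 lower with a median log2FC of -0.0037. Of the 44 rows of 60S and stalk genes tested, 6 were higher and 9 lower with a median of -0.04. Both sets of counts are to be read against the 25.9% of all genes tested that were higher and the 25.1% that were lower.

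**Figure D3:**
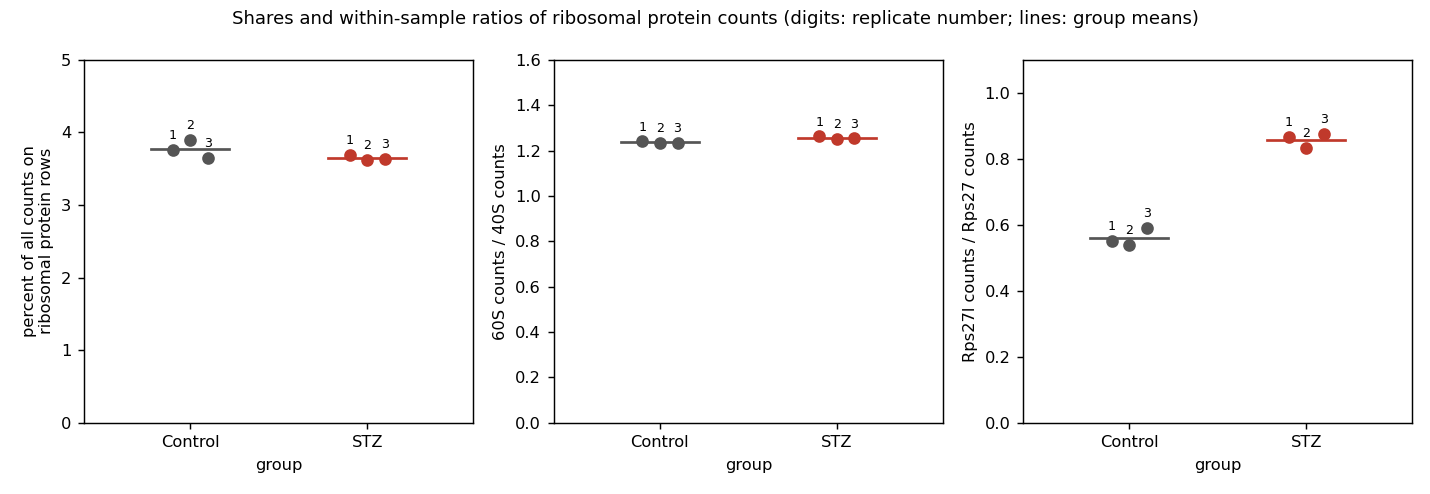
Each point is 1 sample and each line a group mean (n = 3), with the group on the x axis. The y axes give the percent of all counts on ribosomal protein rows, which overlapped between groups, the ratio of 60S to 40S counts, which was 1.23 to 1.24 in Control and 1.25 to 1.26 in STZ, and the ratio of Rps27l to Rps27 counts, which was 0.539 to 0.590 in Control and 0.833 to 0.876 in STZ.

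Rps27l had the largest change of the family. Its level was 140, 140 and 132 CPM in Control replicates 1, 2 and 3 and 233, 223 and 227 CPM in the STZ replicates. All STZ samples lay far above all Control samples. The mean was 137 ± 4.45 CPM in Control and 227 ± 5.27 CPM in STZ (SD, n = 3), 65.8% higher. The log2FC was 0.73 (SE 0.04, adjusted p = 8.55e-19), and by p-value the gene ranked 119 among the 11870 genes tested. Among other p53 target genes in these libraries, the log2FC was 1.95 for Mdm2 and 2.49 for Cdkn1a.

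Rps27, the paralogue in the same place of the 40S subunit, had 253, 260 and 224 CPM in Control and 269, 267 and 259 CPM in STZ. The groups overlapped, and the log2FC was 0.11 (SE 0.04, adjusted p = 0.0277). This call was lost under 2 other scalings, with DESeq2 and when any of 3 samples was left out. Within each sample, which does not depend on scaling, Rps27l had 0.552, 0.539 and 0.590 times the counts of Rps27 in Control and 0.866, 0.833 and 0.876 times in STZ. The ratio rose 1.53 times on average, without overlap of the groups (exact two-sided permutation test, p = 0.1, the smallest value that 3 against 3 samples allow).

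After Rps27l, Rps19 rose most among the rows called. Rps19, a 40S protein mutated in Diamond-Blackfan anaemia, had 437, 452 and 409 CPM in Control and 570, 564 and 549 CPM in STZ. Every STZ sample exceeded every Control sample by a wide margin, and the log2FC was 0.37 (SE 0.04, adjusted p = 3.53e-11). Rpl19, a 60S protein near the peptide exit, had 1193, 1262 and 1180 CPM in Control and 1466, 1458 and 1480 CPM in STZ. Here too the groups were well apart, with a log2FC of 0.28 (SE 0.03, adjusted p = 8.25e-09). The 40S proteins Rps15a and Rps16 followed with log2FC values of 0.20 (SE 0.04) and 0.18 (SE 0.04). Rps15a had 319, 348 and 338 CPM in Control against 376, 373 and 403 CPM in STZ. Rps16 had 795, 852 and 792 CPM against 912, 923 and 922 CPM. In both genes the lowest STZ sample was above the highest Control sample.

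The other 6 rows called higher beside Rps27l, Rps27 and these 4 genes had log2FC values between 0.11 and 0.18. They were Rpl39l, Rps27a, Rpl28, Rpl26, Rpl11 and Rpl23. Rpl39l, a paralogue of Rpl39 known for its expression in the testis, had 136, 152 and 143 CPM in Control and 164, 158 and 166 CPM in STZ (log2FC 0.18, SE 0.04, adjusted p = 8.8e-04). Rps27a encodes a 40S protein fused to ubiquitin, and it had 560, 588 and 566 CPM in Control and 635, 625 and 674 CPM in STZ (log2FC 0.17, SE 0.04, adjusted p = 1.01e-04). In both, the groups did not overlap. Rpl26, known to bind the p53 mRNA, had 90.9, 104 and 92.6 CPM in Control and 112, 101 and 103 CPM in STZ. Its groups overlapped (log2FC 0.14, adjusted p = 0.0213), and the call was lost under 2 other scalings, with DESeq2 and without any of 3 samples.

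**Figure D4:**
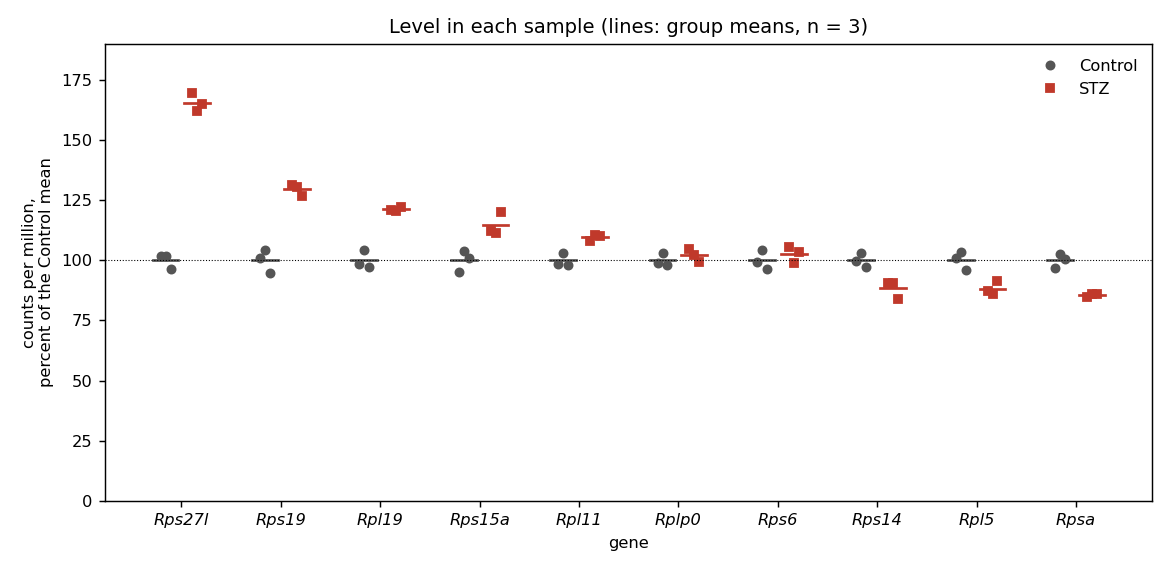
CPM of 10 ribosomal protein genes (x axis) in each sample are shown as percent of the mean of the 3 Control samples (y axis), with circles for Control, squares for STZ and lines for group means. Rps27l, Rps19, Rpl19, Rps15a and Rpl11 are higher in all STZ samples, Rps14, Rpl5 and Rpsa are lower in all, and the groups overlap in Rplp0 and Rps6.

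Falls were smaller than the largest rises and were spread over both subunits. Rpsa, a 40S protein also known as the laminin receptor precursor, had 1362, 1440 and 1412 CPM in Control and 1188, 1210 and 1207 CPM in STZ. The groups were well apart, and the gene fell by 14.4% (log2FC -0.22, SE 0.03, adjusted p = 5.23e-07). Rps10 had 220, 241 and 237 CPM in Control and 203, 211 and 202 CPM in STZ. Rps9, which lines the mRNA entry, had 528, 566 and 549 CPM in Control and 487, 484 and 479 CPM in STZ. Rps14, the 40S protein lost in the 5q deletion syndrome, had 372, 385 and 363 CPM in Control and 339, 339 and 313 CPM in STZ. In Rps10, Rps9 and Rps14 every STZ sample was below every Control sample, and each had a log2FC of -0.18 (SE 0.04 each, adjusted p between 4.62e-05 and 2.63e-04).

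Rpl22 had the lowest fold change of all called rows but few reads. It had 13.7, 12.3 and 11 CPM in Control and 9.38, 8.86 and 11.1 CPM in STZ, and the groups overlapped. The log2FC was -0.32 (SE 0.12, adjusted p = 0.0252), and the call was lost with DESeq2 and without any of 4 samples. Its paralogue Rpl22l1, which Rpl22 is known to repress, had 74.5, 97.9 and 92.3 CPM in Control and 86.0, 77.1 and 82.0 CPM in STZ (log2FC -0.11, adjusted p = 0.124). Control replicate 1 stood apart in this gene, and without it the log2FC was -0.22 (adjusted p = 9.64e-04), and with library size only it also passed (adjusted p = 0.0409). Rpl7l1, a relative of Rpl7 found in maturing 60S particles, had a log2FC of -0.03 (adjusted p = 0.508).

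The groups did not overlap in 11 rows with STZ above, against 28.6% of all genes tested, and in 21 rows with STZ below, against 27.7% of all genes. Both counts lie at or under the background for 77 rows. Across all 19 alternative fits, 9 of the 12 higher calls were kept in each fit that gave a value, namely those of Rps27l, Rps19, Rpl19, Rps15a, Rps16, Rpl39l, Rps27a, Rpl28 and Rpl11. Of the 19 lower calls, 11 were kept in each such fit, among them those of Rpsa, Rps10, Rpl5, Rps9, Rps14, Rps2, Rps15, Rpl12 and Rpl3.

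The RNAs of Rpl5 and Rpl11, whose proteins belong to the particle that links ribosome assembly to p53, changed in opposite directions. The particle itself was not measured. Rpl5 had 841, 862 and 800 CPM in Control and 727, 716 and 763 CPM in STZ (log2FC -0.18, SE 0.04, adjusted p = 5.35e-05). Rpl11, its partner on 5S rRNA, had 648, 679 and 646 CPM in Control and 712, 727 and 723 CPM in STZ (log2FC 0.13, SE 0.04, adjusted p = 0.00166). In neither gene did the groups overlap, and the directions were opposite. Of 12 tested ribosomal protein genes known to bind Mdm2, 6 were higher, 5 lower and 1 did not pass (against 25.9% higher and 25.1% lower among all genes tested), with a median log2FC of 0.03. Those higher were Rps27l, Rps27a, Rpl26, Rpl11, Rpl23 and Rps27, and those lower were Rpl5, Rps14, Rps15, Rps20 and Rps3. Of these calls, only those of Rps27l, Rps27a, Rpl11, Rpl5, Rps14 and Rps15 were kept in every alternative fit.

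The acidic stalk, the docking site of the translation factors on the 60S subunit, gave no call. Rplp0 had 2065, 2153 and 2048 CPM in Control and 2187, 2135 and 2078 CPM in STZ, overlapping levels with a log2FC of 0.03 (SE 0.03, adjusted p = 0.482). Rplp1 and Rplp2, which bind Rplp0 as dimers, had log2FC values of 0.06 (adjusted p = 0.166) and -0.02 (adjusted p = 0.703). Rps6, the substrate of the S6 kinases, had 1033, 1084 and 1003 CPM in Control and 1097, 1028 and 1074 CPM in STZ, again overlapping (log2FC 0.04, SE 0.04, adjusted p = 0.416).

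Of 6 tested genes for proteins along the path of the mRNA on the 40S subunit, Rps2, Rps3, Rps9 and Rps14 were lower (25.1% of all genes tested were), Rps23 and Rps28 did not pass, and the median log2FC was -0.14. Rps2 had 1557, 1558 and 1463 CPM in Control and 1338, 1392 and 1338 CPM in STZ, and the groups were apart (log2FC -0.17, adjusted p = 8.32e-05). Rps3, which also has a known role in DNA repair, fell by 7.46% (log2FC -0.11, SE 0.04, adjusted p = 0.00787). This call was lost without Control replicate 2 (adjusted p = 0.0571) and without STZ replicate 3 (adjusted p = 0.077). At the peptide exit of the 60S subunit, 9 rows were tested, with a median log2FC of -0.07. Rpl19 and Rpl26 were higher and Rpl22, Rpl31 and Rpl35 lower (all genes tested: 25.9% higher, 25.1% lower). Of these calls, only that of Rpl19 was kept in every alternative fit. Rpl3, which helps to shape the peptidyl transferase centre, fell by 8.13% (log2FC -0.12, adjusted p = 0.0029), while Rpl39 had a log2FC of -0.24 (SE 0.17, adjusted p = 0.236).

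The start of transcription was examined because the TOP tract is the best known shared feature of these genes. The RefSeq promoter entries of the GRCr8 assembly, which reach from 250 bases before to 50 bases after the annotated start, covered 55 of the 72 symbols tested. A tract was defined as a C followed by at least 4 bases that are each C or T, on the transcribed strand. Such a C, which may lie inside a longer run, stood at the annotated start in 18 of the 55 genes (32.7%, against 2.63% of all 33469 entries) and within 10 bases of it in 40 (72.7%, against 28.9%). The units differ, since a gene counted if any of its entries had such a C, whereas the shares of all entries count each entry singly. Of the genes called higher, 6 of 11 had a tract within 10 bases, of those called lower 11 of 14, and of those that did not pass 23 of 30. Where a symbol had more than 1 row tested, this grouping used the row with the highest log2FC. Rpl12, if covered by an entry, was thus grouped as not passing, although its most-read row was called lower. The reads were not used to place the starts, and an entry without a tract says only that these letters are not at that annotated position.

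The paralogue pair and some of the most changed genes are given as 30 bases centred on the annotated start, 15 before it and 15 from it on, 5′ to 3′ on the transcribed strand of GRCr8. Capitals mark each tract within the window. They are shown because Rps27l has none where its paralogue Rps27 has a tract across the start. Rps27l is at chr8:76443643-76443672 (plus strand) and Rps27 at chr2:177964592-177964621 (minus strand). Rps19 is at chr1:89608673-89608702 (plus strand), Rpl19 at chr10:83519049-83519078 (plus strand), Rps16 at chr1:92770643-92770672 (plus strand) and Rpl11 at chr5:153560788-153560817 (minus strand). Among the genes that fell, Rpsa is at chr8:128728864-128728893 (plus strand), Rps9 at chr1:74430423-74430452 (minus strand), Rpl5 at chr14:1995211-1995240 (minus strand) and Rps10 at chr20:5700730-5700759 (minus strand).
Rps27l: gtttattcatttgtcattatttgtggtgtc
Rps27: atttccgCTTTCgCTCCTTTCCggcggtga
Rps19: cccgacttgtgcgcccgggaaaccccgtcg
Rpl19: cgcgaccagcaagCTCTTTCCTTTCgctgc
Rps16: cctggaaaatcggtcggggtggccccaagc
Rpl11: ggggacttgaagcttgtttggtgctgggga
Rpsa: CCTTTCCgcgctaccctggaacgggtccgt
Rps9: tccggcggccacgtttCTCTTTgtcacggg
Rpl5: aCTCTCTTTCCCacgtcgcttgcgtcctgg
Rps10: gccgcgcacgCCCCTTCCTTTCCagCCTCC

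Of the 6 genes shown that rose, Rps27 and Rpl19 have a tract in the window, and Rps27l, Rps19, Rps16 and Rpl11 have none. All 4 shown that fell have 1 or more, although that of Rpsa begins more than 10 bases before the start. These genes were picked for their changes and are no sample of the family. Among all 11 genes called higher that an entry covered, 6 had a tract within 10 bases of the start. Of all 55 genes covered, 40 did.

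Of 5 listed ribosomal protein genes whose symbols the rule does not match, 2 were tested, and both were close to the rest. Fau, which encodes a 40S protein fused to a ubiquitin-like protein, had a log2FC of 0.08 (SE 0.04, adjusted p = 0.112). Rack1, the scaffold on the head of the 40S subunit, had a log2FC of -0.0078 (SE 0.04, adjusted p = 0.872).

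The lists that follow are to be read against the 25.9% of all genes tested that were higher and the 25.1% that were lower. Among other mRNAs with a known TOP tract, 2 of 13 tested were higher and 7 lower, with a median log2FC of -0.12. Fau and Rack1 are among the 13. Eef1g, Eef2, Eef1b2, Eif3h, Eif3f and Pabpc1 are counted again in the elongation and initiation factor lists below, so the lists are not independent. Hnrnpa1, an RNA-binding protein of splicing, had 602 ± 17.8 CPM in Control and 380 ± 1.62 CPM in STZ (SD, n = 3), a log2FC of -0.66 (SE 0.04, adjusted p = 1.56e-19). This exceeded the fall of each of the 77 ribosomal protein rows tested. Of 4 elongation factor genes tested, 3 were lower, and Eif5a changed most clearly, with a log2FC of -0.47 (SE 0.04, adjusted p = 2.74e-14). Of 25 initiation factor genes, 5 were higher and 10 lower with a median of -0.04. Eif6, which keeps 60S subunits from joining 40S subunits too early, rose from 106 ± 2.08 CPM to 140 ± 5.39 CPM (SD, n = 3; log2FC 0.40, SE 0.04, adjusted p = 7.06e-10).

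Genes of the mTORC1 and LARP1 axis, which controls translation of these mRNAs, had 4 of 13 higher and 4 lower with a median of -0.03, shares near those of all genes tested. Deptor, an inhibitor of mTOR, fell from 122 ± 8.42 to 83.8 ± 5.34 CPM (SD, n = 3; log2FC -0.55, adjusted p = 3.97e-12). Of 9 genes that chaperone ribosomal proteins or assemble subunits, 1 was higher and 3 were lower, and Ltv1, a 40S assembly factor, had a log2FC of -0.21 (adjusted p = 0.00127). Of 6 genes of termination and ribosome rescue, 3 were higher and 1 lower, and Etf1, the release factor, had a log2FC of 0.14 (adjusted p = 0.00662).

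The proteins of the mitochondrial ribosome served as a comparison. Of 70 such genes tested, 9 were higher, 25 lower and 36 did not pass (all genes tested: 25.9% higher, 25.1% lower), with a median log2FC of -0.08 and a range from -0.68 to 0.32. Mrpl58, the rescue hydrolase of this ribosome, fell from 33.3 ± 2.24 to 20.8 ± 0.471 CPM (SD, n = 3; log2FC -0.68, adjusted p = 6.14e-10). The standard deviation of log2FC values between genes was 0.21 for these and 0.15 for the cytosolic rows, against 0.42 for all genes tested. The sets were not matched for level. The difference between the 2 ribosomes was not tested, since genes are not replicates.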

How the data were processed

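Per the labels and the study's methods, libraries were made with a TruSeq stranded mRNA kit and sequenced as single-end reads of 100 bases. The authors mapped them to the rat genome Rnor6 with STAR 2.7.10a and deposited the raw counts of uniquely mapped reads per gene from featureCounts. The strand setting is not given in the sources used here. Columns were matched to samples by title, and no sample column was left unused.

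Here, edgeR 4.0.16 in R 4.3.3 was run on all rows, with filterByExpr, TMM factors, the quasi-likelihood test and Benjamini-Hochberg adjustment. The methods of the study name edgeR and its cutoffs but no test within it. Standard errors are the absolute log2 fold change over the square root of F. Where several rows share a symbol, the row with most counts carries it. The steps were tested on simulated data with planted changes larger than those of nearly all ribosomal protein rows. Detection of smaller changes was not tested. Alternatives were other scalings, filters and tests (DESeq2 1.42.0, limma-voom 3.58.1), rows summed by symbol, a replicate block and each sample left out.

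The members and lists were chosen with earlier results of these data known. Genes named are Rps27l, the 6 largest rises and 6 largest falls among called rows, the stalk, 5S particle and paralogue genes, further members with a known role, and, of each further list, the member ranked first by p, with Fau and Rack1 (Rpl10 was not analysed here). Any other gene was named after its values were seen. Protein sequences were not analysed here.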

Additional observations from a re-analysis of the deposited data

How the results depend on the processing

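The number of rows higher in STZ with an adjusted p under 0.05 was 12 and stayed within 9 to 15 in every alternative. These were 11.7% to 19.2% of the rows, against 16.3% to 26.5% of all genes. The number of lower rows was 19, but 29 with library size only, where the median of all genes was -0.0391 instead of -0.0055, and 11 to 20 in leave-one-out fits. In the leave-one-out fits, 14.1% to 26% of the rows were lower, against 22% to 23.2% of all genes. The median log2 fold change of the rows, -0.0346, was -0.0682 with library size only and -0.0581 to 0.0059 with one sample left out, turning positive without Control replicate 2. No row passed both thresholds, but 2 did with no filter (the second row of Rpl9 and Rpl35a), 1 with at least 0.5 CPM in 1 sample (Rpl35a) and 0 to 1 with one sample left out. These rows had at most 19 counts. With glmTreat none passed. The ratio of Rps27l to Rps27 rose by 0.59 to 0.65 on the log2 scale over the leave-one-out fits. Adding the processed copies left the shares of counts at 3.77% in Control and 3.65% in STZ.

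Of 664 refits of 35 named genes, 636 kept their direction and side of the threshold, 20 lost the call, 3 gained one and 5 turned. Those that turned were never called, namely Rplp0 with library size only (-0.00304), Rplp2 without Control replicate 2 (0.00336, with -0.0425 to this value over leave-one-out fits) and Rack1 (from -0.0312 upward) without Control replicate 2 (0.0125), STZ replicate 2 (0.00714) and STZ replicate 3 (0.00546). The cause was not tested.

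Whether equal replicate numbers pair the samples was checked over 9239 genes, where deviations from the group means correlated at 0.0288, -0.0226 and 0.138, and the samples were not treated as pairs. Under the replicate block, 13 rows were higher (16.9%, against 26.4% of all genes) and 19 lower (24.7%, against 25.8%), and none passed both thresholds. There was no sign of a library deposited in duplicate, as chi-square over its degrees of freedom was 1.85 to 2.56 within groups. The 20 rows that did not pass the filter, Rpl35a among them, had at most 19 counts in any sample, which limits what can be seen in them.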

Other observations

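Processed copies and little-read relatives of these genes carried few reads. The 4 rows marked -ps held 46 to 115 counts together in a library, and of the 2 tested neither passed. Rps27a-ps1 had 105 counts in Control replicate 2 and 29 to 67 in the other samples. Rps27a-ps28 had 8 to 14 counts in Control and 12 to 24 in STZ, a log2FC of 0.62 (SE 0.34, adjusted p = 0.124 in edgeR). Rps10l1, a further copy on its own row and named after its values were seen, had 47 to 62 counts in Control and 52 to 101 in STZ (log2FC 0.32, SE 0.17, adjusted p = 0.127), and it passed without STZ replicate 2. The muscle paralogue Rpl3l had at most 2 counts in any sample and the testis paralogue Rpl10l at most 5, which allows no comparison at this depth.

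A within-sample ratio chosen after its values were seen, that of Rps19 to Rps14, both single proteins of the 40S subunit, was 1.18, 1.17 and 1.13 in Control and 1.68, 1.67 and 1.75 in STZ. It does not depend on library scaling, and no test was made because the pair was picked from the ends of the list.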
